A study of Arabidopsis thaliana with 30 samples.

Results

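Steady-state RNA of untreated Arabidopsis thaliana seedlings carrying the combined h2a.x/w-2 mutation (XW) was compared with that of the wild type, Columbia (Col). The comparison takes the 3 mock libraries labelled XW and the 3 mock libraries labelled Col, which are 6 of the 30 libraries of the series. The growth protocol describes seedlings kept for 7 days in long days on solid medium, whereas the tissue field reads leaves. The remaining libraries are the mock h2a.x-1 (X), h2a.w-2 (W) and tsk mutants and all 5 genotypes under methyl methanesulfonate (MMS, a DNA-alkylating agent), each with 3 replicates. The labels give neither the kind of alleles nor the dose or duration of MMS, and they do not say that replicates were separate cultures. P-values therefore measure the spread between these samples, which may be technical. The series title concerns how the tails of both histone variants bring the repair protein TONSOKU (TSK) to chromatin, and this comparison shows the transcriptome of plants without added damage when both variants are mutated together.

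H2A.X and H2A.W are variants of histone H2A. H2A.X is phosphorylated around DNA breaks, and H2A.W is the plant variant of heterochromatin. TSK acts in the repair of broken or stalled replication forks, and in plants the transcription factor SOG1 drives most of the transcriptional response to DNA damage. Among the plant genes that answer touch, wounding and cold within minutes are many ethylene response factor (ERF), ZAT, WRKY and calmodulin-like genes, and a separate group of genes answers the defence hormone salicylic acid.

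Depth over the listed genes ran from 15789170 to 25115027 reads in the 6 libraries. XW replicate 1 lay apart from the other XW libraries. Its read counts differed from those of replicates 2 and 3 with a chi-square per degree of freedom of 17.1 and 18.5, while replicates 2 and 3 differed by 2.47, and pairs in the other groups lay between 2.05 and 8.28. Replicate 1 was at least 2-fold below both other XW libraries for 86 genes and at least 2-fold above both for 14, of 19036 genes. The glycine-rich protein gene AT2G05510 showed the gap most plainly, at 10.1 normalized counts in replicate 1 against 87.9 and 76.7 in the others. Results below are therefore given with and without that library where it matters. Leaf photosynthesis genes (35 of 35 listed) and root genes (26 of 28 listed) were both measured. The libraries thus held RNA of shoot and root cells. In such bulk RNA, fewer cells of a type and less RNA per cell cannot be told apart.

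The RNA of the targeted genes did not mark the libraries labelled XW. HTA5, an H2A.X gene, stood at 1052, 1035 and 1033 normalized counts (reads divided by the authors' size factor for each library) in Col replicates 1 to 3 and at 939.6, 936 and 874 in XW. Its difference was -0.18 on the log2 scale (adjusted p = 0.1). In the libraries labelled X it was far lower, at 191 ± 19.0 (SD, n = 3), which is 2.44 below Col on the log2 scale (adjusted p = 1.2e-18), and XW lay 2.26 above X (adjusted p = 1e-17). The low HTA5 RNA of X was thus not seen in XW. The other H2A.X gene, HTA3, differed by -0.03. Among the H2A.W genes, HTA6 differed by -0.19 and HTA7 by -0.10, and none of these 4 passed the test. HTA5 and HTA6 passed as lower in a fit without XW replicate 1 on the 5 other libraries (-0.20 and -0.21) and with the length trend removed (-0.23 and -0.26), both chosen after seeing the data. In W, HTA6 was 0.52 lower than in Col on the log2 scale. HTA12, the remaining H2A.W gene, rose by 0.45 (SE 0.14, adjusted p = 0.019). Its values in XW were 257, 172 and 171 against 139, 128 and 163 in Col, and without XW replicate 1 the difference was 0.26 (adjusted p = 0.19). The H2B gene AT5G02570 covers 34.7% of its exons on the other strand. The labels name a combined mutant and do not give the kind of alleles. Whether the plants lack either protein was not tested.

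Of 20256 genes tested with limma, 2393 (11.8%) were higher in XW and 2726 (13.5%) were lower at an adjusted p under 0.05. The rises were larger than the falls. The median change of the genes called higher was 0.56 on the log2 scale and that of the genes called lower was -0.31, beside a median of -0.02 over all genes. Rises of at least 2-fold numbered 597 (2.95%) and falls of that size 92 (0.454%). Of the genes called lower, 2397 changed by less than 1.5-fold. The 3 XW values did not overlap the 3 Col values for 2246 of the genes called higher and 2536 of those called lower. The calls rest on these same libraries, so this separation is a description and no separate support. How many of all tested genes separate in this way was not counted. Without XW replicate 1, 2026 genes were higher and 2103 lower. Of these, 1756 and 1713 were called in the same direction with all libraries, and none was called in opposite directions.

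**Figure D1:**
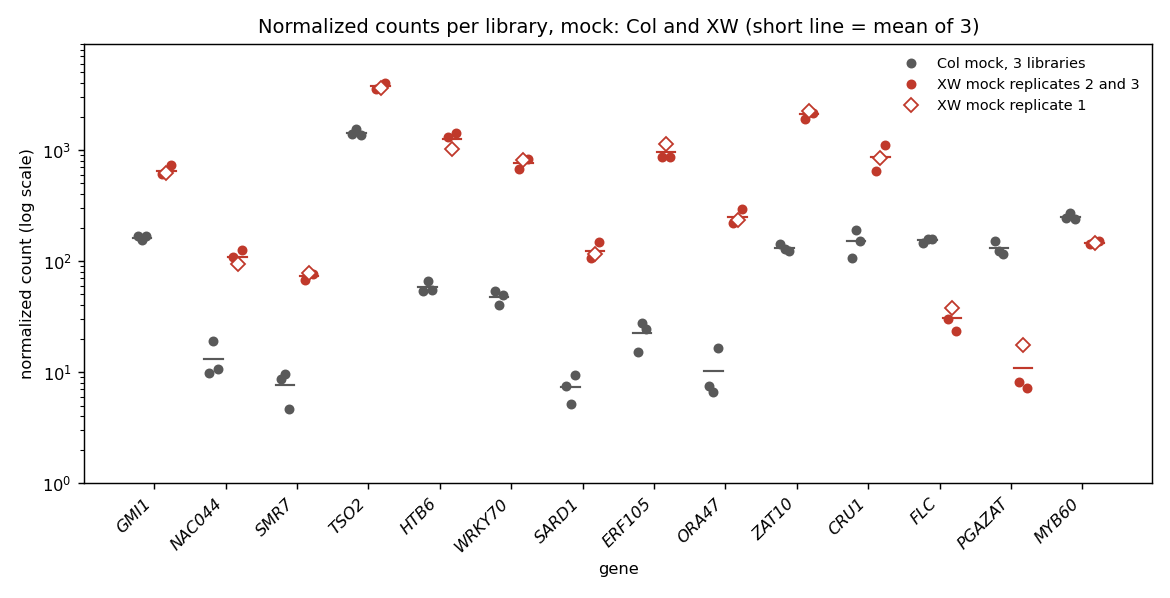
Normalized counts (log axis) of 14 genes in each Col and XW mock library, with XW replicate 1 drawn as an open diamond and a line at the mean of each group of 3. The XW libraries lie above Col for the damage, histone, salicylic acid and touch genes and below it for FLC, PGAZAT and MYB60, and replicate 1 lies on the same side of Col as the other XW libraries. For PGAZAT it stands above them, at 17.37 against 8.08 and 7.16.

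The largest rise among genes measured well enough for ranking was AT5G07610, an F-box protein gene on chromosome 5 (5:2406068-2407330, TAIR10.1). It stood at 0.732, 1.08 and 2.34 normalized counts in Col and at 128, 84.8 and 113 in XW. All 3 XW values were far above all 3 Col values, and the change of 5.56 (SE 0.40, adjusted p = 1.2e-11) is on the log2(value + 1) scale, which understates the change of a gene this low in Col. AT5G42530, whose product has no assigned function, came to 22.7, 52.9 and 35.2 in Col and to 745, 922 and 1243 in XW. Its rise was 4.73 (SE 0.28). AT3G22235, which encodes a small cysteine-rich transmembrane protein, rose by 4.55 from 7.32, 17.3 and 15.2 to 293, 241 and 441. The other largest rises were ERF105, ORA47 and ERF13, which belong to the touch and wound genes, the zinc finger gene ZAT7 and the histone gene HTB6.

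The largest fall was that of PGAZAT, a polygalacturonase gene whose enzyme cuts pectin (2:17461655-17464242). It stood at 124, 150.0 and 116 normalized counts in Col and at 17.37, 8.08 and 7.16 in XW. The change was -3.55 (SE 0.35, adjusted p = 8.9e-09). AT1G29090, a cysteine proteinase gene, fell from 817, 700.2 and 584 to 92.3, 98 and 84.9, a change of -2.91. DIN2, a beta-glucosidase gene known to be raised in the dark, fell from 702, 516 and 457 to 125, 107 and 65.5, a change of -2.51. Each of these genes had no XW value near its Col values, although groups without overlap were a condition for being ranked here. EXPA2, an expansin gene of wall loosening, changed by -2.67, the flowering-promoting FLP1 by -2.71, the pectin methylesterase inhibitor gene AT5G46960 by -2.23 and AT4G07820, of the pathogenesis-related CAP family, by -2.16. Against Col in mock, X stood at -3.57 for PGAZAT, -3.17 for AT1G29090, -3.03 for EXPA2, -2.71 for AT5G46960 and -2.62 for DIN2. None of these genes differed between XW and X by limma's direct test (adjusted p of 0.46 or more). Among the 8 largest falls, those of FLP1, AT4G07820 and FLC were smaller in X, at -1.42, -1.45 and -0.67.

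**Figure D2:**
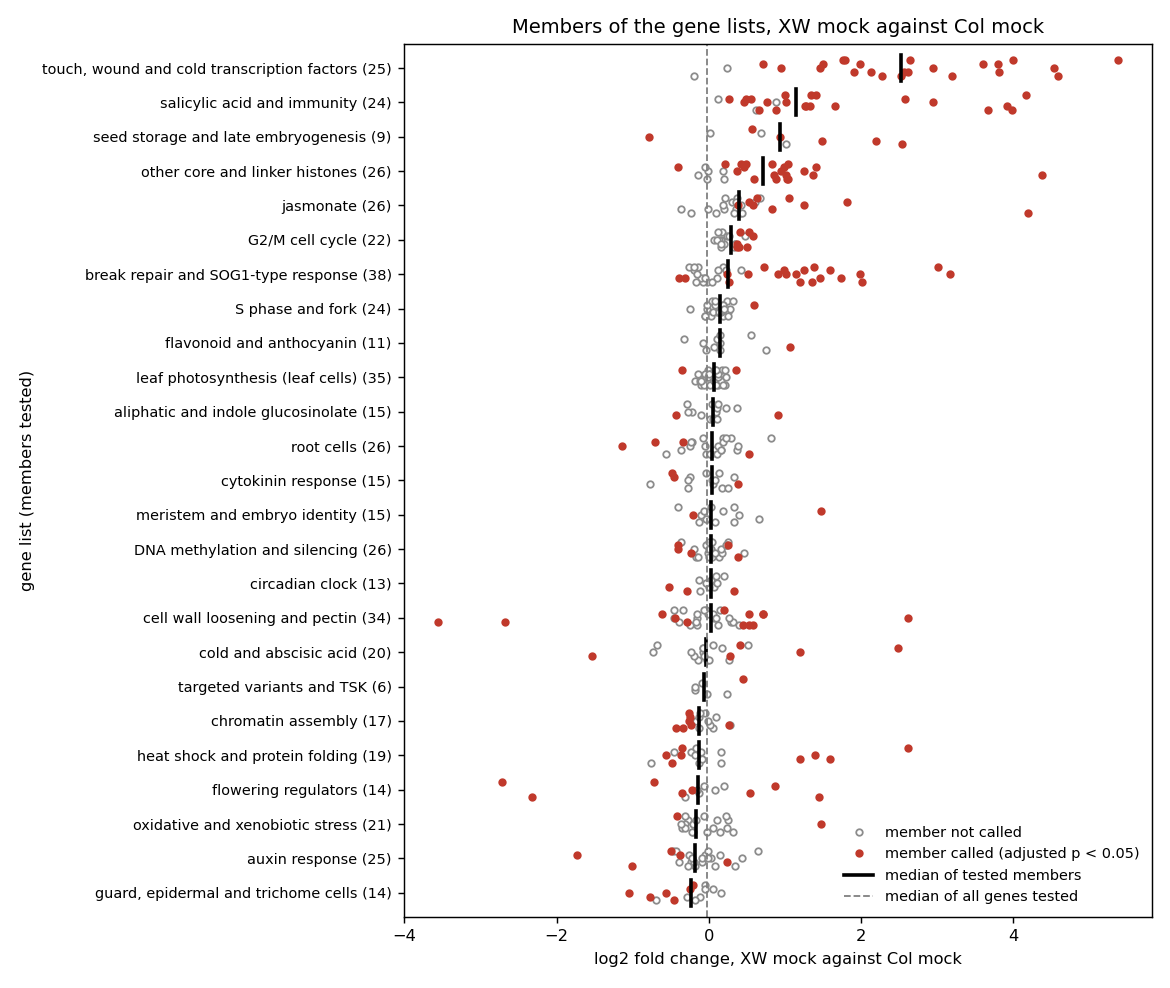
Log2 fold change (XW against Col, mock) of each tested member of 25 gene lists. Filled red points passed the test, the black line is the list's median and the dashed line the median of all genes, -0.02. The touch, wound and cold list (median 2.52) and the salicylic acid list (median 1.14) lie farthest to the right.

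Genes of core and linker histones other than the targeted ones were higher in XW. Of 26 tested, 19 rose and 1 fell, beside 11.8% and 13.5% of all genes, and the list's median was 0.71. Its summed level was 32010.7 to 34488 normalized counts in the Col libraries and 49240.5 to 51014 in the XW libraries. HTB6, an H2B gene (3:19889297-19890251), led the list. It stood at 65.9, 53.9 and 55.1 in Col and at 1010.0, 1312 and 1412 in XW, which is 20.9-fold higher (log2 change 4.38, SE 0.15, adjusted p = 4.1e-18). HTB11, another H2B gene, was at 1313, 1179 and 1118 in Col and at 3322, 2966 and 3272 in XW, a rise of 1.41 (SE 0.06). In both genes the XW libraries lay above every Col library, and the change in HTB6 was the larger one. HTA13, which encodes a canonical H2A, rose by 1.01 from 551, 546 and 511 to 981, 1048 and 1220.2. HTA2 rose by 1.38, HTB1 by 1.25, HTA1 by 1.02 and the H3 gene HTR9 by 0.88. The H2A.Z gene HTA8 rose by 0.37 while another H2A.Z gene, HTA9, was the one that fell, by 0.40. Histone genes resemble each other, and the way shared reads were counted is not given in the sources used here. HTB9 and HON1 also overlap a gene on the other strand over 34.3% and 41.8% of their exons, and HTR3 overlaps AT3G27380 on its own strand over 39.4%.

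The promoters of plant histone genes often hold an octamer, CGCGGATC. It was found on either strand in the 250 bases before the annotated start of 7 of the 26 histone genes tested, 6 of them among the 19 that rose, and in 30 of all 20256 promoters (0.148%). The promoter of HTA13 is shown as an example, from RefSeq on TAIR10.1 (3:7229140-7229389, plus strand), with the octamer, here read as its reverse complement at position -68 from the start, in capitals.
HTA13: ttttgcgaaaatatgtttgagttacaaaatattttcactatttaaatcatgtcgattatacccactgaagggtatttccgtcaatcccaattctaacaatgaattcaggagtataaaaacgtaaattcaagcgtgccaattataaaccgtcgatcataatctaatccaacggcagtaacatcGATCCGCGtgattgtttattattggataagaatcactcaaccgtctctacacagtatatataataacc
A match describes the letters and shows no binding. Of the 597 genes that rose by at least 2-fold, 2 (0.335%) held the octamer.

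DNA damage genes were higher in XW without any added damage. Of 38 tested genes of break repair and of the SOG1-type response, 19 rose and 2 fell, beside 11.8% and 13.5% of all genes. These 38 genes had a median of 0.25. Their summed level was 10440 to 10983 normalized counts in Col and 14395 to 16494 in XW, and the counts were again 19 and 2 without XW replicate 1. The rises were largest among genes that hold back the cell cycle. SMR7, a SIAMESE-related inhibitor of cyclin-dependent kinases (3:10230892-10231567), stood at 9.52, 8.63 and 4.69 in Col and at 77.7, 67.7 and 76.7 in XW, a rise of 3.17 (SE 0.30, adjusted p = 4e-09). NAC044, a relative of SOG1 that takes part in arrest before mitosis, stood at 19, 9.71 and 10.6 in Col and at 94.1, 108 and 125 in XW, a rise of 3.01 (SE 0.22). The XW values of both genes exceeded every Col value several times over. SMR4 rose by 2.01 at a low level, from 3.66, 4.32 and 2.34 to 17.37, 16.2 and 16.4. SMR5 was 1.46 higher, but all of its exons lie under AT1G07510 on the other strand, so its reads are uncertain.

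Repair genes rose as well. PARP2, a poly(ADP-ribose) polymerase that marks breaks, stood at 179, 186 and 148 in Col and at 417, 557 and 595 in XW, a rise of 1.60 (SE 0.12, adjusted p = 1.3e-11). BRCA1, which acts in homologous recombination, rose by 1.36 from 159.7, 159.7 and 151 to 379, 372 and 467. In both genes the lowest XW library lay above the highest Col library. The SMC-like gene GMI1 rose from 153, 167 and 166 to 615, 612 and 725, and TSO2, a small subunit of ribonucleotide reductase, from 1535, 1398 and 1351 to 3606, 3573 and 4005. COM1, of break end processing, rose by 1.25, the clamp loader gene RAD17 by 1.2, the damage-raised cyclin gene CYCB1-1 by 0.99 and RPA1E, of single-strand binding, by 0.92.

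Not all of the pathway moved. SOG1 itself differed by 0.05, with values of 266, 272 and 266 in Col and 248, 293 and 293 in XW. The end-joining genes KU70, KU80 and LIG4, the break sensors MRE11 and NBS1 and the kinase gene ATR did not pass the test. ATM, the kinase that signals breaks, fell by 0.40 from 596, 586 and 574 to 366, 517 and 464. RAD50, a partner of MRE11, fell by 0.31 from 872, 831 and 834 to 580.4, 745 and 731. In both, XW replicate 1 was the lowest library, and without it the changes were -0.26 and -0.19 and still passed.

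SOG1 is known to bind a palindrome, CTTNNNNNNNAAG. It was found before the start of 9 of the 38 tested damage genes, 7 of them among the 19 that rose, and in 8.97% of all promoters. The 597 rises of at least 2-fold held it in 12.9%. The promoters of NAC044 (3:228825-229074, plus strand, match at -65) and PARP2 (4:1049516-1049765, plus strand, match at -96) are shown, since both genes rose strongly, with the palindrome in capitals.
NAC044: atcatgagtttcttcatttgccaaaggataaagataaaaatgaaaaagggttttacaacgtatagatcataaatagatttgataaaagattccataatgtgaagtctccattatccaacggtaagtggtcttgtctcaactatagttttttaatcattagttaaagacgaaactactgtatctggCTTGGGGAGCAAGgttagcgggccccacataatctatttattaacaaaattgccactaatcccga
PARP2: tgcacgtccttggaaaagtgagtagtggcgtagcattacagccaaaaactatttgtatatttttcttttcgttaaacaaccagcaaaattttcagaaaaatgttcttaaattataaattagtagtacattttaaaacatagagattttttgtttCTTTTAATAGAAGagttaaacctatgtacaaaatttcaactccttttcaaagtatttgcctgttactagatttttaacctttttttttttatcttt

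Genes of DNA synthesis lay only a little higher. Of 24 tested S phase and fork genes 19 had a positive difference, with a median of 0.15. Over all 20256 genes, 9492 had a positive difference, with a median of -0.02. Of the 24, only CDKB1-1, a cyclin-dependent kinase, passed the test, with a rise of 0.59 from 105, 104 and 101 to 159.9, 159 and 148. Genes of G2 and mitosis lay slightly higher. All 22 had a positive difference, with a median of 0.30, and 7 passed the test, beside 11.8% of all genes higher. The 7 became 3 without XW replicate 3 and 4 without any 1 of the Col replicates. The mitotic cyclin genes CYCB2-1 and CYCB2-2 rose by 0.59 and 0.53, the spindle factor gene TPX2 by 0.50, the kinase genes CDKB2-1 and AUR1 by 0.40 and 0.37. Of the 22 genes, 12 were higher in W than in Col (median 0.38), 7 in tsk (median 0.32) and none in X (median 0.25). Of all genes, 6.05% were higher in W, 10.9% in tsk and 4.29% in X. Tested against W, none of the 22 was higher in XW and 1 was lower, beside 11.7% and 10.2% of all genes.

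The touch, wound and cold transcription factors and their companions had the highest median change of the 25 lists. Of 25 tested, 23 rose and none fell, beside 11.8% and 13.5% of all genes. The median was 2.52, and the summed level went from 4316 to 4526 normalized counts in Col to 22822 to 26480.1 in XW. ERF105 (5:20800473-20801437) stood at 27.8, 15.1 and 24.6 in Col and at 1139, 872 and 869 in XW, 41.7-fold higher (log2 change 5.38, SE 0.22, adjusted p = 1.2e-16). All of its exons lie under AT5G51180 on the other strand, so its reads cannot be assigned with certainty. Related genes without such an overlap rose too. ERF104 (5:24766344-24767732) stood at 190.4, 243 and 247 in Col and at 2814, 2602 and 2835 in XW, a rise of 3.6 (SE 0.16). ZAT10, a zinc finger repressor (1:9648021-9649323), rose by 3.99 from 127, 141 and 123 to 2229, 1907 and 2159. The replicates of each genotype lay close together for both genes, XW replicate 1 included.

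Further members rose at higher and lower levels. WRKY40 rose by 3.81 from 34.4, 53.9 and 31.7 to 491, 519 and 682, and WRKY33, which directs camalexin synthesis, rose by 2.27 from 426, 437 and 389 to 2009.9, 1745 and 2331. ORA47, a regulator of jasmonate synthesis, stood at 6.59, 7.55 and 16.4 in Col and at 236, 220.2 and 297 in XW. ERF13 went from 3.66, 2.16 and 1.17 to 66.7, 77.8 and 73.6, and ZAT7, which was not on the list, from 1.46, 4.32 and 5.86 to 77.7, 79.8 and 116. These 3 genes were close to the lower limit of measurement in Col and clearly present in every XW library. The classic touch genes were abundant in both genotypes. TCH3, a calmodulin-like protein gene, rose by 2.52 from 489, 627 and 563 to 2105, 3590.2 and 4365. TCH2, another calmodulin-like gene, rose by 1.77 (SE 0.10, adjusted p = 1.1e-13) from 287, 261 and 283 to 1003, 840.2 and 995, and TCH4, a xyloglucan-modifying enzyme gene, rose by 2.62. CML37 and ZAT11 were the 2 tested members that did not pass. CBF1, CBF3, ERF1, RRTF1 and DDF1 were listed but not analysed here.

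A rapid stress response element, CGCGTT, is known from promoters of genes that answer wounding within minutes. It was found in 2 of the 25 tested promoters of this list, both of genes that rose, in 2.77% of all promoters and in 6.87% of the rises of at least 2-fold. TCH2 (5:14999620-14999869, minus strand) is shown because it holds the element 4 times, as overlapping matches on both strands between positions -84 and -63, in capitals.
TCH2: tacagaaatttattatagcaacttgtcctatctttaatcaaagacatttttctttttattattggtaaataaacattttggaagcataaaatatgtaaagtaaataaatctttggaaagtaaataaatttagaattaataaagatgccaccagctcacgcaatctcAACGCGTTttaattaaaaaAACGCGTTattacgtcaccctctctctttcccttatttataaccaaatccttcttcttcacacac

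Salicylic acid and immunity genes formed another block of rises. Of 24 tested, 21 rose and none fell, beside 11.8% and 13.5% of all genes. The median was 1.14, and the summed level was 3959 to 4032 normalized counts in Col and 8554 to 10345 in XW. Without XW replicate 1, 22 rose. WRKY70, a transcription factor between the salicylic acid and jasmonate branches (3:20908711-20910623), stood at 40.3, 53.9 and 49.2 in Col and at 809, 678 and 824 in XW, 15.8-fold higher (log2 change 3.99, SE 0.16, adjusted p = 5.3e-17). SARD1, a transcription factor that turns on genes of salicylic acid synthesis (1:27744790-27749248), rose by 3.92 from 5.13, 7.55 and 9.38 to 116, 106 and 148. Downstream of SARD1, ICS1, the isochorismate synthase of salicylic acid synthesis, rose by only 0.67 from 237, 191 and 192 to 349, 282 and 354, and PBS3 by 1.33. All XW values of these genes lay above all Col values.

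Receptors and signalling partners rose as well. The wall-associated kinase gene WAK1 rose by 3.67 (SE 0.26, adjusted p = 9e-12) from 33.7, 47.5 and 42.2 to 441, 485 and 690.4, and the immune receptor gene RLP23 by 4.17. NPR3, a salicylic acid receptor gene, rose by 1.35 from 286, 268 and 263 to 705, 679.7 and 696, while NPR1, the co-activator, rose by 0.27. ACD6, an ankyrin membrane protein gene of defence, rose by 1.66 from 458, 462 and 482 to 1349, 1334 and 1812. PAD4, SAG101 and EDS1, the lipase-like genes of one immune node, rose by 1.00, 0.89 and 0.46. ALD1, PR5 and EDS5 did not pass the test, and 6 further listed genes, PR1, PR2 and FMO1 among them, were not analysed here. The W-box core TTGAC, which WRKY factors bind, was found in 13 of the 24 tested promoters, 11 of them among the 21 that rose, and in 45.1% of all promoters and 56.4% of the rises of at least 2-fold.

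Jasmonate genes changed in part. Of 26 tested, 9 rose and none fell, beside 11.8% and 13.5% of all genes, and the median was 0.40. TAT3, a tyrosine aminotransferase gene raised by jasmonate, stood at 2.2, 5.39 and 2.34 in Col and at 58.5, 108 and 64.4 in XW, a rise of 4.2 (SE 0.37). It stood apart from the rest of the list. The repressor gene JAZ7 rose by 1.82, the lipoxygenase gene LOX4 by 1.26 and the synthesis gene OPR3 by 0.53. VSP2, a vegetative storage protein gene, rose by 1.06, although its values of 274, 722 and 395 in Col and 866, 1169.5 and 702 in XW overlapped. MYC2, the central transcription factor, was 0.57 higher but 98.5% of its exons lie under AT1G32630 on the other strand.

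The counts of the next 4 lists stand beside 11.8% of all genes higher and 13.5% lower. Seed genes were measured at levels that varied between replicates. Of 23 listed, 9 were in the table, 5 rose and 1 fell. CRU1, a cruciferin seed storage protein gene, rose by 2.53 (SE 0.55, adjusted p = 0.001) from 192, 107 and 151 to 854, 646 and 1108, and OLEO4, an oleosin gene, by 2.2. ABI3, the transcription factor that drives such genes in seeds, fell by 0.79 from 78.4, 61.5 and 72.7 to 43.9, 38.4 and 38.9. Of 20 cold and abscisic acid genes, 4 rose and 1 fell. CYP707A3, the enzyme that breaks down abscisic acid, rose by 2.49 from 85, 84.2 and 62.1 to 435, 432 and 433, and NCED3, an enzyme of abscisic acid synthesis, rose by 1.2 from 47.6, 57.2 and 51.6 to 132, 108 and 125. COR15B, a cold-regulated chloroplast protein gene, fell by 1.54 from 136, 282 and 233 to 73.1, 83.8 and 58.3, although the cold regulator gene CBF2 rose by 1.91. COR15B shares 29.5% of its exons with AT2G42520 on the other strand. Heat shock and folding genes split, with 4 rises and 4 falls among 19, or 4 and 2 without XW replicate 1. The endoplasmic reticulum chaperone gene BIP3 rose by 2.62 at a low level, the cytosolic HSP70-4 fell by 0.56 and HSP101 by 0.48. Among 21 oxidative and xenobiotic stress genes, 1 rose, the cytochrome P450 gene CYP81D8 by 1.47, and 1 fell, the superoxide dismutase gene CSD2 by 0.42.

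Flowering regulators went in both directions, with 3 rises and 5 falls among 14, beside 11.8% and 13.5% of all genes. FLC, the repressor of flowering (5:3173382-3179448), fell by 2.32 (SE 0.25, adjusted p = 3.3e-08) from 157, 146 and 159 to 37.5, 30.3 and 23.5. An antisense gene, AT5G01675, covers 68.1% of its exons, so sense and antisense reads cannot be told apart if strand was not used. Its relative MAF4 fell by 0.72 from 86.4, 84.2 and 90.3 to 53, 50.5 and 53.2, while the neighbouring MAF5 rose by 1.45 from 19, 8.63 and 11.7 to 32.9, 34.3 and 40.9. SOC1, a promoter of flowering that FLC represses, rose by 0.86 from 308, 289 and 273 to 555, 502 and 529.8. SVP, which represses flowering together with FLC, rose by 0.55 from 738, 764 and 737 to 1129, 1111 and 1037. FLP1 fell from 127, 73.4 and 62.1 to 8.23, 14.1 and 14.3.

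Growth genes were called in both directions, beside 11.8% of all genes higher and 13.5% lower. Of 34 wall-loosening and pectin genes 8 rose and 5 fell, and without XW replicate 1 the rises were 3. XTH22, which is the same locus as TCH4, was the largest rise, and PGAZAT and EXPA2 were the largest falls. Of 25 auxin response genes 1 rose and 4 fell, with SAUR20 at -1.73, and of 15 cytokinin genes 1 rose and 2 fell. These shares of falls are close to the 13.5% of all genes. Leaf photosynthesis genes gave 1 rise and 1 fall among 35, with LHCB3 at 0.36 and RBCS2B at -0.36. The 2 calls became 6 without XW replicate 2, 5 without replicate 3, 1 without XW replicate 1 or any Col replicate, and 11 in the 5-library fit. Of 26 root genes 1 rose and 3 fell, among them WOX5, the marker of the root quiescent centre, which fell by 1.14 from 12.5, 10.8 and 10.6 to 7.31, 4.04 and 3.07. Of 15 meristem and embryo genes WOX4, of the vascular cambium, rose by 1.47 and CLV1 fell by 0.21.

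Guard cell and epidermal genes were lower. Of 14 tested none rose and 6 fell, beside 11.8% and 13.5% of all genes. The median was -0.23, and the summed level was 12644 to 12895 normalized counts in Col and 11071 to 11163 in XW. HIC, a fatty acid elongase gene of guard cells, fell by 1.05 (SE 0.12) from 199, 204 and 205 to 125, 80.8 and 91. MYB60, a guard cell transcription factor, fell by 0.77 from 272, 244 and 237 to 145, 142 and 152. FAMA, which completes guard cell formation, fell by 0.56 from 484, 461 and 434 to 315, 315 and 302. The groups did not overlap for any of the 3. SPCH, which starts the stomatal lineage, fell by 0.46, and the epidermal genes FDH (AT2G26250) and PDF2 (AT4G04890) by 0.25 and 0.21. SPCH did not pass without XW replicate 1. The part of a changed number of such cells in other results was not tested.

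Genes of chromatin changed by small amounts. Of 17 histone chaperone and assembly genes 1 rose and 6 fell. HIRA, a chaperone of H3.3, fell by 0.43 from 449, 418 and 410.3 to 278, 355 and 319. NAP1-3, a chaperone of H2A and H2B, fell by 0.34 from 1375, 1384 and 1385 to 1177, 1050.3 and 1054. MSI1, a subunit of chromatin assembly factor 1, fell by 0.26, but its XW values of 525, 729 and 742 show replicate 1 apart, and without it the difference was -0.10 and did not pass. Of 26 genes of DNA methylation and silencing 2 rose and 3 fell, which is no more than the shares over all genes, 11.8% and 13.5%. The methylcytosine-binding VIM3 and VIM1 rose by 0.38 and 0.25. The demethylase gene ROS1 fell by 0.40 from 568, 621 and 629.6 to 473, 450.4 and 455. IBM1, a histone demethylase gene that protects genes from methylation, fell by 0.40, and the methyltransferase gene CMT2 by 0.23.

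The share of falls varied with transcript length. It was 6.16% among genes with 501 to 750 nt of exons and 31.1% among those over 4000 nt, while the share called higher went from 13.8% to 5.7%. Median differences over the same classes went from 0.06 to -0.10. The 292 genes of at most 500 nt did not follow this order, with 9.25% lower, 7.19% higher and a median of -0.10. Without XW replicate 1 the share lower went from 4.84% at 501 to 750 nt to 21.0% over 4000 nt, and was 6.85% in the shortest class. Other comparisons showed a rise between the same 2 classes. It went from 4.69% to 31.4% for XW against Col under MMS. Against Col in mock it went from 3.08% to 14.1% in W, from 1.76% to 4.45% in X and from 7.62% to 19.3% in tsk. The cause was not tested. With each library's length trend removed, the fall of HIRA was 0.35 and still passed, and CMT2 and CLV1 no longer passed, at -0.15 both.

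**Figure D3:**
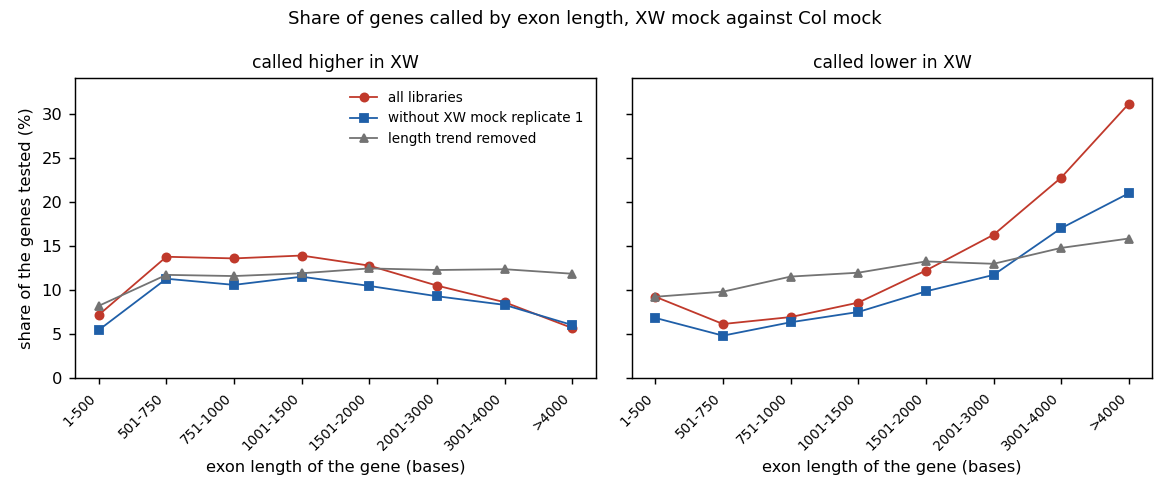
Share of tested genes called higher or lower in XW mock against Col mock (percent) by summed exon length (nt), with all libraries, without XW replicate 1, and with each library's length trend removed. From the class of 501 to 750 nt upward the share called lower climbs in the first 2 settings, and in the last it goes from 9.82% to 15.8%. The shortest class stands at 9.25%, 6.85% and 9.25%.

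Changed genes lay along all chromosomes. The share called higher was 11.02% to 12.6% per chromosome and the share called lower 12.8% to 14.0%. Within 1 Mb of the gene-poor centre of each chromosome 80 genes were tested, of which 10 (12.5%) were higher and 15 (18.8%) were lower. Silenced genes and transposable elements of that region were not analysed here.

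The X and W mutants against the same 3 Col libraries gave fewer calls than XW. In X, 4.29% of genes were higher and 3.2% lower, in W 6.05% and 7.08%, and in tsk 10.9% and 15.1%. These comparisons share the Col libraries with XW, and their values are set side by side. The touch, wound and cold list had medians of 1.23 in X, 1.24 in W, 0.28 in tsk and 2.52 in XW. The salicylic acid list had medians of 0.15, 0.06, 0.29 and 1.14 in the same order. The break repair list stood at 0.07 in X, 0.24 in W, 0.39 in tsk and 0.25 in XW, and the histone list at 0.20, 0.43, 0.04 and 0.71.

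**Figure D4:**
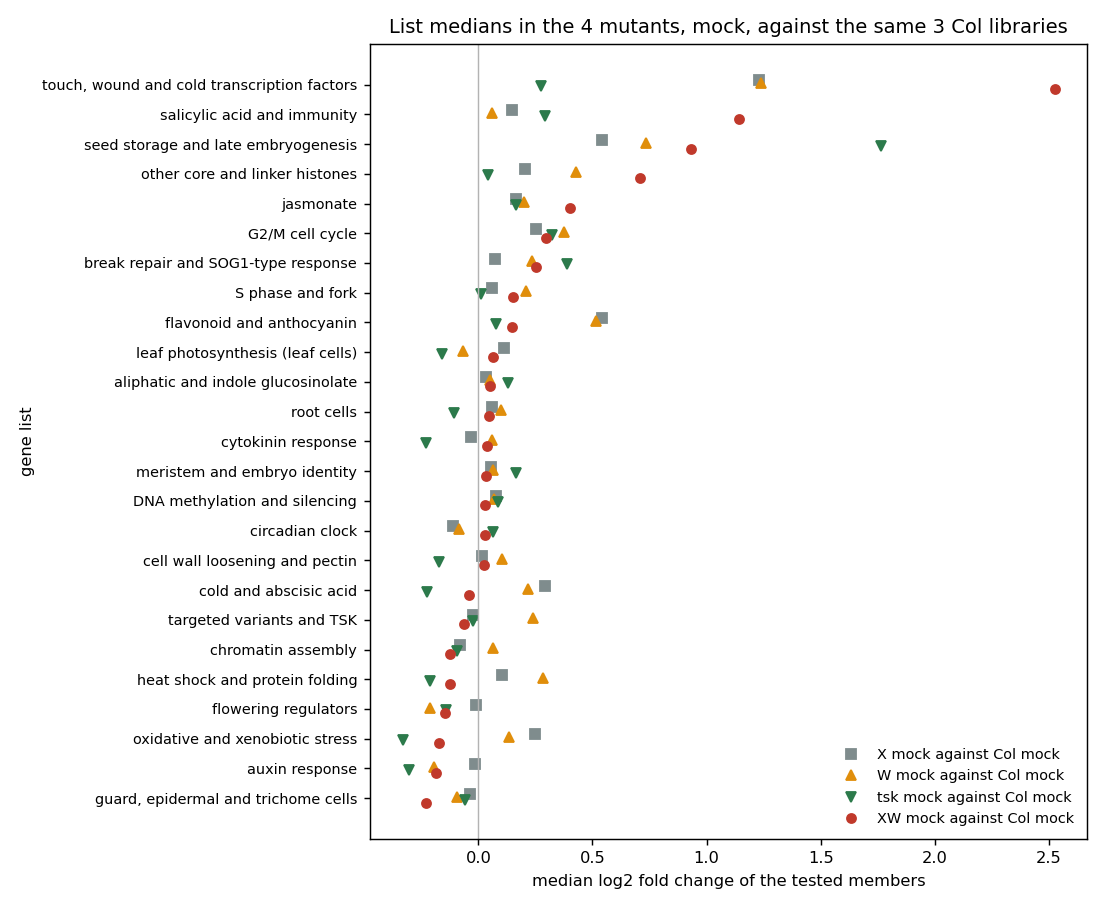
Median log2 fold change of the tested members of each list in X, W, tsk and XW mock, all against the same 3 Col mock libraries. XW has the highest median of the 4 for the touch, wound and cold (2.52), salicylic acid (1.14) and histone (0.71) lists, while tsk has the highest for break repair (0.39).

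Direct tests between mutants compare means that do not include the Col libraries, although all libraries enter the estimate of spread. They share the 3 XW libraries with the comparison above. Against X, 7.38% of genes were higher in XW and 6.92% lower, and against W 11.7% were higher and 10.2% lower. Both directions came to 2896 genes against X, or 1783 without XW replicate 1, and to 4445 against W, or 3433 without it. Of the 25 touch, wound and cold genes, 21 were higher in XW than in X and 22 higher than in W. ZAT10 was 1.31 higher than in X and 1.09 higher than in W. Of the 24 salicylic acid genes, 19 were higher than in X and 20 higher than in W. WRKY70 was 2.28 higher than in X and 2.48 higher than in W, and WAK1 3.23 and 3.73 higher. Of the 26 histone genes, 17 were higher than in X and 15 higher than in W, with HTB6 3.07 above X and 1.13 above W. Of the 38 break repair genes, 15 were higher than in X and 1 lower, and 13 higher than in W and 3 lower. NAC044 was 2.36 above X and 0.96 above W. FLC was 1.65 below X, while its difference from W was 0.07 (adjusted p = 0.87). PGAZAT differed from X by 0.02 and was 2.03 below W.

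The same genotypes under MMS form a comparison with no library in common with the mock one. There 12.8% of genes were higher in XW and 12.5% lower. Of the 597 mock rises of at least 2-fold, 367 were also higher under MMS, 5 were lower and 225 were not called. The 367 are 61.5% of the mock rises and 14.2% of the 2591 genes higher under MMS. Of the 92 falls of at least 2-fold, 41 were also lower (44.6%) and 1 was higher. The median of the 597 rises was 1.42 without and 0.88 with MMS. The difference between the XW effects, tested as an interaction, was higher under MMS for 3.85% of all genes and lower for 5.07%. Among the 597 rises it was lower for 212 and higher for 33. The rises were chosen for being large without MMS, so this count is a description.

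The lists parted under MMS. The touch, wound and cold genes lost most of the difference, with a median of 0.54 and 12 of 25 called higher, and for 18 of 25 the XW effect was smaller under MMS by the interaction test. ERF105 went from a difference of 5.38 to 1.04 and ERF104 from 3.6 to 0.15. In Col, MMS raised ERF104 by 1.38, while in XW it lowered it by 2.07. TCH2 differed by 1.77 in mock and by -0.05 under MMS. The salicylic acid genes had a median of 1.1, with 17 of 24 called higher, although the difference in WRKY70 went from 3.99 to 2.70. The histone genes differed more under MMS, with a median of 1.28, 22 of 26 called higher and 13 with a larger effect by the interaction test. HTB6 differed by 5.56 there. In Col, MMS changed HTB6 by -0.98, HTA2 by -0.78 and HTB11 by -0.45. In XW it changed the same genes by 0.20, -0.10 and 0.16. Of 24 S phase genes 19 were higher in XW under MMS, where 1 had been in mock. By the interaction test the XW difference was higher under MMS for 10 of these 24. The break repair list had 24 of 38 higher with a median of 0.63, and the interaction test called 5 of the 38 higher under MMS and 6 lower. For NAC044 the difference was 1.78 under MMS against 3.01 in mock, and FLC remained lower, by 2.21.

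**Figure D5:**
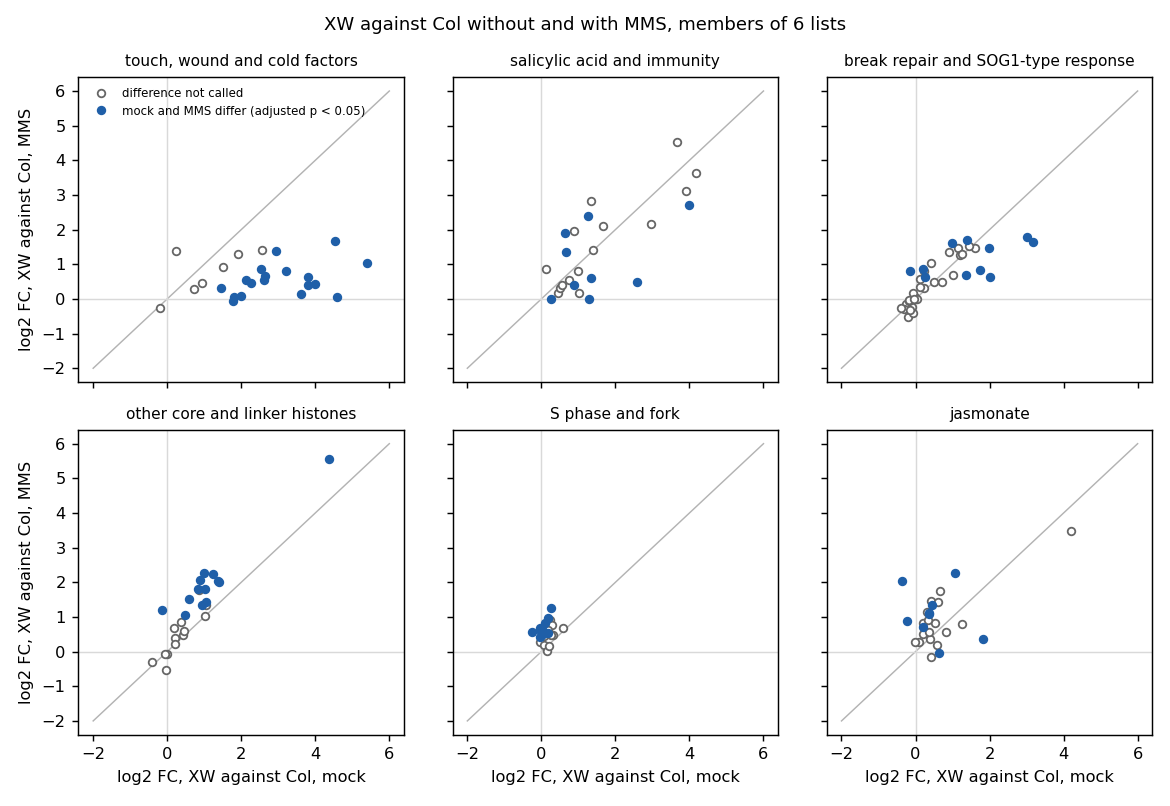
Log2 fold change of XW against Col under MMS (vertical) and in mock (horizontal) for the tested members of 6 lists. Blue points differ between the treatments by the interaction test and the diagonal marks equal effects. Most touch, wound and cold genes lie below the diagonal, and 13 histone genes lie above it as blue points.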

How the data were processed

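RNA was sequenced from 30 libraries in 10 groups of 3, of which 6 are compared here. The submitters' processing notes name STAR as aligner, TAIR10 as build and DESeq2 1.30.1. The authors deposited normalized signal, in which each library's counts are divided by its size factor. They also deposited FPKM values, which served here as an alternative. The strandedness of the libraries and the counting tool are not given in the sources used here. All values of the first table (100%, tolerance 0.01 of a read) were whole multiples of 1 read, so the reads could be recovered. Depth in the 30 libraries was 15343687 to 25115027 reads, which limits precision for low genes. Every listed gene has reads in each library, and genes without reads somewhere are not analysed here.

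The plan assumed raw counts and edgeR. Since the deposited values are normalized, limma 3.58.1 (R 4.3.3, empirical Bayes with a trend) was run on log2(normalized count + 1), which understates changes of low genes. Genes with at least 10 normalized counts in at least 3 libraries were tested (20256 of 20404, 148 removed), in 1 model of all 30 libraries leaving 20 residual degrees of freedom. Benjamini-Hochberg adjustment ran over all tested genes, and genes under 0.05 were called. Alternatives were count tests on the recovered reads (DESeq2 1.42.0 and edgeR 4.0.16), other scaling, pseudocounts of 0.5 and 5, no filter, FPKM, fewer libraries and a replicate block. The procedure was tested on simulated data. Sequences, positions and overlaps come from RefSeq, TAIR10.1, and promoters are the 250 bases before the annotated start.

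The comparison, the 25 gene lists (570 genes, 515 tested), the motifs and the rules were chosen with earlier results of these data known, so list counts are no independent support. Genes named by rule were the targeted genes, for each list the 3 called members of lowest adjusted p (2 where fewer than 4 were called), the 8 largest rises and falls with a mean of at least 1 CPM and no overlap of the groups, and the 5 genes with the largest gap of XW replicate 1. Other genes of the lists were named for their role, after their values were seen. Same-numbered libraries of XW mock and Col mock did not deviate together (correlations of 0.00135, 0.0358 and -0.0758). The other groups were not compared in this way, so whether the numbers pair samples is not settled.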

Additional observations from a re-analysis of the deposited data

Results flagged for a closer look

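The difference between XW and Col was itself different under MMS for 40 of the 85 genes named by rule, by limma's interaction test at an adjusted p under 0.05, beside 3.85% of all genes higher and 5.07% lower. Most of these genes were chosen for their difference in mock, which enters the interaction. Values below are the log2 difference of XW from Col under MMS minus that in mock. For 24 genes the value was negative. Among touch and wound genes it was -4.54 for ORA47, -4.34 for ERF105, -3.58 for ZAT10, -3.45 for ERF104, -2.85 for ERF13 and -2.08 for XTH22. For the zinc finger gene ZAT7 it was -2.74. In the salicylic acid and jasmonate lists it was -1.29 for WRKY70, -0.74 for NPR3, -1.45 for JAZ7 and -0.67 for JAZ9. Among stress genes it was -2.70 for CYP707A3, -2.39 for BIP3, -1.32 for CYP81D8, -0.81 for HSFB2A and -0.41 for PP2CA. The seed gene OLEO4 stood at -2.33. The damage genes XRI1 and GMI1 stood at -0.91 and -0.52. The rest were UGT75C1 at -1.32, PHT1-1 at -0.65, SVP at -0.61, ARR9 at -0.49 and PRR5 at -0.46.

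For 16 genes the value was positive. Among histone genes it was 1.57 for HTA6, 1.18 for HTB6, 0.67 for HTA2, 0.64 for HTA7, 0.61 for HTB11, 0.43 for HTA3 and 0.41 for HTA5. It was 0.33 for TSO2. Other genes were lower in XW in mock and less so, or no longer, under MMS. They were FLP1 at 3.26, SAUR20 at 1.60, WOX5 at 1.52, DIN2 at 1.23, HSP70-4 at 0.80 and RBCS2B at 0.42. CYP79B2, at 1.14, changed direction. Its difference was -0.43 in mock and 0.71 under MMS (limma, adjusted p = 2.4e-05). The seed gene PER1, higher in XW in mock, stood at 2.14.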

How the results depend on the processing

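With the replicate block 2365 genes were higher and 2663 lower, and the block moved no count by 1.5 times. DESeq2 on the recovered reads called 2463 and 2573, edgeR 2617 and 2627, and limma after TMM scaling 2426 and 2667. A fit on only the 6 libraries gave 1772 higher and 1266 lower, and 15 in place of 25 called genes within 1 Mb of the gene-poor centres. Falls of at least 2-fold numbered 92, but 59 on FPKM and 57 with a pseudocount of 5. Leaving out 1 library at a time gave 1871 to 2300 genes higher, 1956 to 2674 lower, 553 to 599 rises and 82 to 108 falls of at least 2-fold, 8 to 12 called wall genes (13 with all) and 19 to 24 genes near the centres. Called genes between XW and X were 2896, 1783 without XW mock replicate 1 and 1436 from those groups alone. Between XW and W they were 4445, and 1867 from those groups alone. The causes were not tested. Without XW replicate 1 the difference of HTA7 turned from -0.10 to 0.19 (-0.28 to 0.19 over the libraries left out) and that of AT2G05510 from -0.09 to 0.88 (-0.62 to 0.88), also 0.88 in a fit of the 5 other libraries.

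The 5-library fit (2521 higher, 2748 lower) and removal of each library's length trend (2450 and 2595) were chosen after seeing the data. In the 17 lists with fewer than 8 calls, 53 of 289 counts moved by over 1.5 times. Of 76 called genes named by rule, 64 passed under all 17 alternatives. The other 12 were HTA12, TPX2, CSD2, LHCB3, PHT1-1, WOX5, CASP4, CLV1, UGT75C1, PRR5, CMT2 and AT3G22121. Most of the 76 were chosen for a low adjusted p in the main fit. The largest rises and falls were also chosen for passing without XW replicate 1. The count of 64 is therefore a description and no separate support. Including genes absent from the normalized table was not run, since the files hold no values for them. Replicates number 3 a group, which limits small changes most.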

Other observations

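For secondary metabolism and the clock, the mock counts stand beside 11.8% of all genes higher in XW and 13.5% lower. Of 11 flavonoid and anthocyanin genes UGT75C1, a glycosyltransferase gene of anthocyanins, rose by 1.07 and none fell. Of 15 glucosinolate genes MAM3, which lengthens the side chain, rose by 0.91 and CYP79B2, of the indole branch, fell by 0.43. Under MMS, 10 of these 15 were higher in XW than in Col and none was lower, beside 12.8% and 12.5% of all genes. The interaction test called 5 of the 15 higher under MMS and none lower, beside 3.85% and 5.07% of all genes. Of 13 clock genes PRR5 rose by 0.33 while the morning genes LHY and RVE8 fell by 0.53 and 0.28. Without XW replicate 1, 2 clock genes were higher and 3 lower. Of 26 jasmonate genes 21 were higher in XW under MMS, beside the same 12.8% of all genes, where 9 were in mock. By the interaction test the XW difference was higher under MMS for 7 of the 26 and lower for 2.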
